A study of Mus musculus with 3 samples.

Results

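The genes described here encode mitochondrial ribosomal proteins. They were taken as all genes whose symbol begins with Mrpl or Mrps followed by a digit, and there were 76 of them among the 14133 genes of the table. The mitochondrial ribosome, or mitoribosome, is assembled in the mitochondrial matrix from ribosomal RNAs made there and from proteins that are encoded in the nucleus, made in the cytosol and imported. It translates the few messenger RNAs of the mitochondrial genome, all of which encode subunits of the respiratory chain and ATP synthase. Its proteins fall into those with a counterpart in bacterial ribosomes and those found only in mitochondria.

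The cells were labelled as female primordial germ cells, which give rise to oocytes, from fetal ovaries of C57BL/6 mice. At all 3 stages they had been sorted for Oct4-EGFP, a fluorescent reporter of Pou5f1. The embryos were 12.5, 14.5 or 16.5 days old (stages written E12.5 to E16.5), a period in which female germ cells leave mitosis and enter meiotic prophase. Each stage was 1 droplet library of RNA 3′ ends, and the number of embryos behind it is not given in the sources used here. Stage and library therefore cannot be told apart, no test was possible, and no p-value is given.

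Germ-cell-like cells, named from clusters formed without the 76 genes, made up 4678 of 4706 cells at E12.5, 8903 of 9075 at E14.5 and 5312 of 5363 at E16.5. Their unique molecular identifiers (UMIs, each marking 1 RNA molecule) summed to 125161525 at E12.5, 102506950 at E14.5 and 68980723 at E16.5. The libraries shared few cell barcodes, 58 between E14.5 and E12.5, 43 between E16.5 and E12.5 and 72 between E16.5 and E14.5. In the E12.5 library, which is labelled female, 666 of the germ-cell-like cells held a Y-linked UMI, and no such cell was found at E14.5 or E16.5. Levels are given as CPM, the UMIs of a gene per 1000000 UMIs of all genes in the summed germ-cell-like cells. UMIs of 3′ ends count molecules and were not divided by gene length. Intervals are 95% intervals that cover counting error only.

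Mitochondrial ribosomal protein RNA made up a similar share of germ cell UMIs at E12.5 and E14.5 and a smaller share at E16.5. The 76 genes together held 12244 CPM at E12.5, 12149 CPM at E14.5 and 10691 CPM at E16.5, which is 1.22%, 1.21% and 1.07% of all UMIs in that order of stages. The E16.5 sum was 1.14-fold lower than the E14.5 sum. Scaled by the median of gene ratios instead of total UMIs, the sums were 14408, 11394 and 9687, so that on that scale E14.5 was also below E12.5. Without the E12.5 cells that held a Y-linked UMI, the E12.5 sum was 12163 CPM. The 49 proteins of the large subunit summed to 8614, 8424 and 7399 CPM along the 3 stages. The 26 proteins of the small subunit summed to 3504, 3543 and 3226 CPM. Both subunits were thus lowest at E16.5.

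All 76 genes were detected in every stage, with at least 10 CPM each and no fewer than 708 UMIs in any stage. The level spread widely among them, although the proteins are mostly present once per mitoribosome. The highest, Mrpl42 of the mitochondria-specific large-subunit group, reached 608 CPM at E12.5 and 620 CPM at E14.5, and Mrpl20 was the highest at E16.5 with 509 CPM. The lowest at each stage was Mrps2, with 21.5, 11.4 and 10.3 CPM in stage order. The 5 highest genes held 18.5%, 19.1% and 19.5% of the summed CPM at the 3 stages, so no small group made up most of the signal. Levels of at least 100 CPM were found for 47 genes at E12.5, 46 at E14.5 and 41 at E16.5. The genes lay on 17 chromosomes, 10 of them on chromosome 11 and 8 on chromosome 17.

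**Figure D1:**
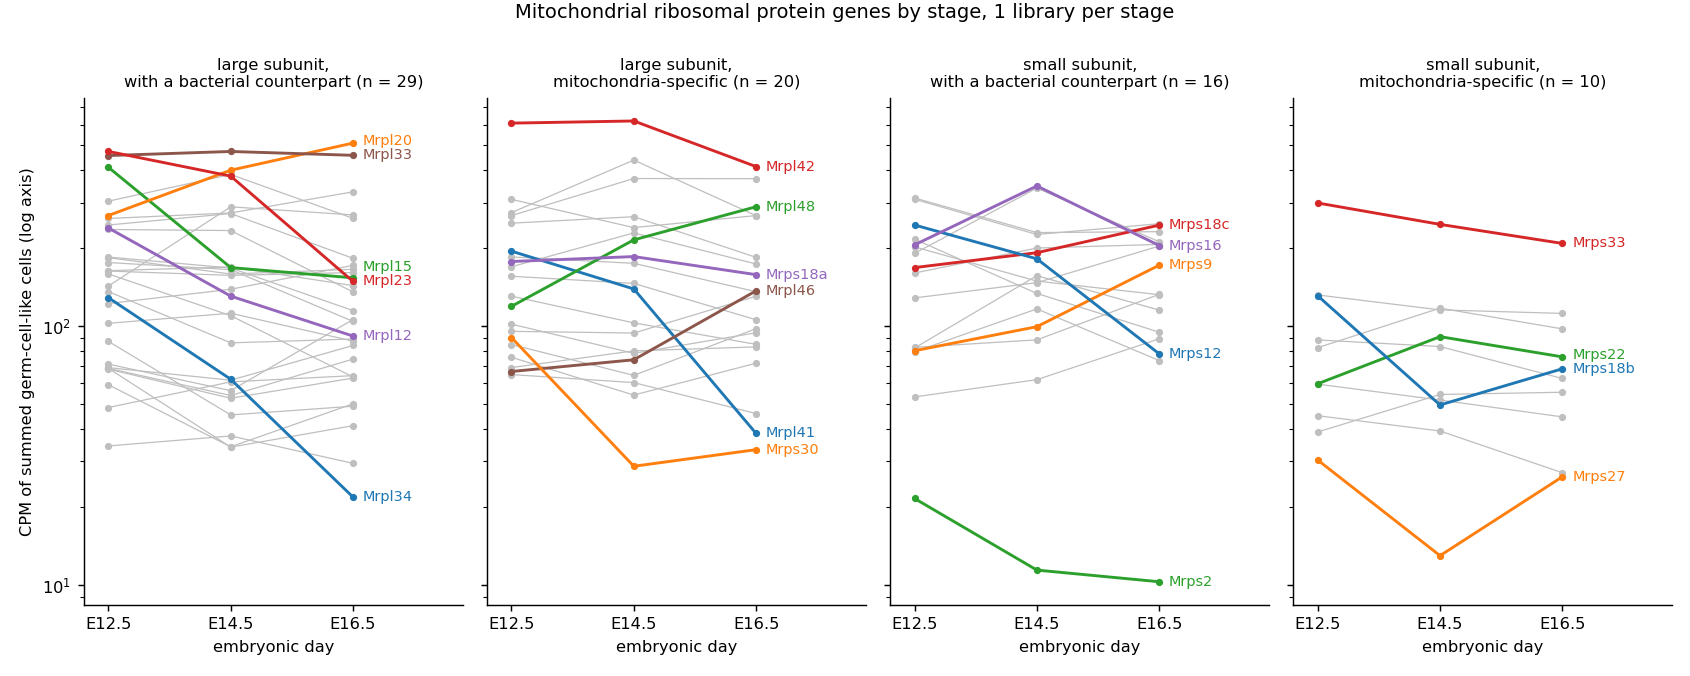
Level of the 75 genes that encode mitoribosome subunits at each stage, in CPM of the summed germ-cell-like cells on a log axis, with 1 library per stage. Panels separate the large and small subunits and the proteins with and without a bacterial counterpart, coloured lines are genes named in the text and grey lines are the others. Mrpl34, Mrpl41 and Mrps30 were lower and Mrpl48, Mrps9 and Mrpl46 higher at E16.5 than at E12.5, by more than 2-fold in CPM.

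Between consecutive stages most of the genes stayed within a 2-fold range. At E14.5 relative to E12.5, 1 gene was higher in CPM by 2-fold or more and 6 were lower to that extent, against 31.2% of all 14132 genes tested that were higher and 16.3% that were lower. At E16.5 relative to E14.5, 1 gene was higher by 2-fold or more and 5 were lower, against 16.3% and 17.4% of all genes. At E16.5 relative to E12.5, a comparison that shares its libraries with the others, 3 genes were past 2-fold upward and 10 downward, against 37.0% and 22.7% of all genes. Low-count genes vary more, so the shares were also taken over the 6416 genes with at least the mean level of the lowest member. In these, 21.4% were higher and 12.4% lower at E14.5 than at E12.5, 7.68% and 11.3% at E16.5 than at E14.5, and 28.8% and 19.8% at E16.5 than at E12.5. In CPM, 65 of the 76 genes stayed within 2-fold at both consecutive steps. Under median-of-ratios scaling 0 genes were past 2-fold upward in any comparison, and 11, 5 and 18 were past it downward in the same order of comparisons.

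The median log2 ratio of CPM over the 76 genes was -0.08 for E14.5 over E12.5, beside 0.30 over all genes. It was -0.12 for E16.5 over E14.5, beside 0.06, and -0.21 for E16.5 over E12.5, beside 0.39. Over the 6416 genes with at least the mean level of the lowest member, the medians were 0.15, 0.05 and 0.22 in the same order. The distance to the members was thus smaller than over all genes in each comparison. Below the all-gene median lay 58 of the 76 genes in the first comparison, 48 in the second and 60 in the last. Of the 6416 genes, 3588, 3264 and 3527 lay below it. Of 83 cytosolic ribosomal protein genes, 63, 51 and 60 lay below it in the same order. Of 91 nuclear genes of the respiratory chain, 47, 68 and 61 did. Most cytosolic ribosomal protein genes thus lay below the all-gene median too, so a place below it was not particular to the members. Median-of-ratios scaling moved the all-gene median to -0.03, 0.01 and 0.01 in the same order, and the members' medians to -0.41, -0.17 and -0.59. By CPM 34, 34 and 27 of the 76 genes were higher in the later stage and 42, 42 and 49 lower. Of all 14132 genes, 8418, 7464 and 8256 were higher by CPM and 5714, 6668 and 5876 lower. Under median-of-ratios scaling 16, 29 and 16 of the 76 were higher and 60, 47 and 60 lower. All-gene counts were not taken on that scale, whose all-gene medians are given above. A direction of a single gene in CPM that is smaller than the all-gene shift therefore depends on the scaling. The highest of the 3 stages was E12.5 for 37 members, or 48.7%, beside 32.8% of all genes, and E16.5 for 19 of the 76 members, beside 43.0% of all genes. Highest stages were not counted over the 6416 genes.

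**Figure D2:**
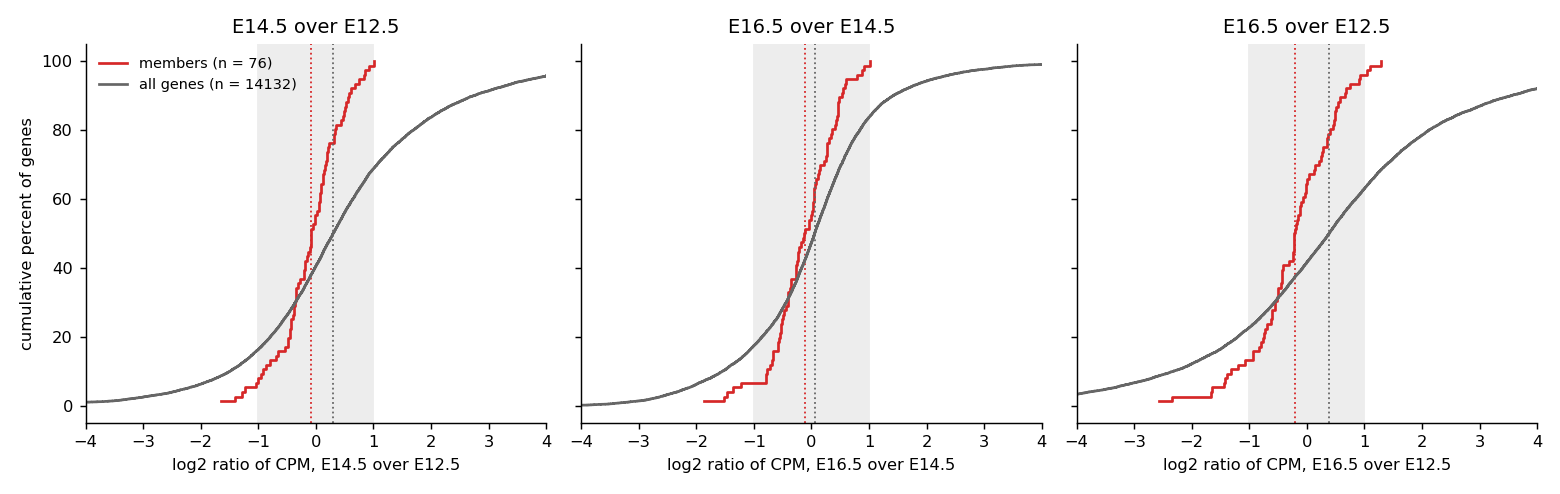
Cumulative percent of genes (vertical axis) against the log2 ratio of CPM (horizontal axis) for E14.5 over E12.5, E16.5 over E14.5 and E16.5 over E12.5, for the 76 mitochondrial ribosomal protein genes (red) and all 14132 genes (grey). Dotted lines mark the medians (-0.08 and 0.30, -0.12 and 0.06, -0.21 and 0.39 for the 76 genes and all genes) and the shaded band is the 2-fold range, which holds most of the red curve in each panel.

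Among large-subunit proteins with a bacterial counterpart, 5 of 29, or 17.2%, had an E16.5 level at least 2-fold below that of E12.5, beside 22.7% of all genes. None was 2-fold above it, beside 37.0% of all genes. Mrpl34, a small protein that binds ribosomal RNA, had 129 CPM at E12.5, 62.2 at E14.5 and 21.8 at E16.5. It was the one member at least 2-fold lower at both steps, and its log2 ratio of E16.5 over E12.5 was -2.56 (interval -2.64 to -2.48). Mrpl23, whose bacterial counterpart lies at the exit of the peptide tunnel, had 473, 379 and 149 CPM along the stages. Most of its difference lay in the second step, with a log2 ratio of -1.35 (-1.38 to -1.32) for E16.5 over E14.5. Mrpl15 differed in the other step, with 411 CPM at E12.5, 168 at E14.5 and 153 at E16.5. Mrpl12, a stalk protein of the kind that recruits translation factors to the ribosome, was lower at each later stage, with 239, 130 and 91.4 CPM. Mrpl36 had 159, 110 and 63.5 CPM, and Mrpl16 had 68.6, 34.0 and 41.2 CPM.

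Other members of the same class were flat or higher. Mrpl33 stayed level in CPM, with 456 at E12.5, 473 at E14.5 and 457 at E16.5, while its log2 ratio of E16.5 over E12.5 was -0.37 under median-of-ratios scaling. Mrpl20, whose bacterial counterpart is needed early in the assembly of the large subunit, had 267, 400 and 509 CPM, and took the first rank at E16.5. Its log2 ratio of E16.5 over E12.5 was 0.93 (0.91 to 0.95) in CPM and 0.55 under median-of-ratios scaling. Mrpl35 had 143 CPM at E12.5, 289 at E14.5 and 269 at E16.5, and was the one gene past 2-fold upward at E14.5 relative to E12.5 in CPM, though its log2 ratio of 1.02 became 0.69 under median-of-ratios scaling. Mrpl1, the protein of the mobile L1 stalk, was lowest in the middle, with 71.2, 56.2 and 106 CPM. The proteins of this one class thus ranged over log2 ratios of E16.5 over E12.5 between -2.56 and 0.93.

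The 20 mitochondria-specific proteins of the large subunit showed the same spread, with 2 members past 2-fold upward and 2 downward at E16.5 relative to E12.5. That is 10.0% each way, beside 37.0% upward and 22.7% downward of all genes. Mrpl41 had 195 CPM at E12.5, 139 at E14.5 and 38.4 at E16.5, and its log2 ratio of E16.5 over E14.5, -1.86 (-1.92 to -1.80), was the lowest of the 76 genes at that step. Mrps30, which carries a small-subunit symbol but sits in the large subunit in mammals, had 90.2, 28.7 and 33.3 CPM. Its log2 ratio of E14.5 over E12.5, -1.65 (-1.71 to -1.59), was the lowest at the first step, and its E16.5 level was also below that of E12.5. Mrpl48 had 119, 215 and 289 CPM and Mrpl46 had 66.7, 74.0 and 137 CPM. Both passed 2-fold upward at E16.5 relative to E12.5 in CPM, and neither did under median-of-ratios scaling, where the log2 ratios were 0.90 and 0.66. Mrpl44, which has a ribonuclease III fold, had 84.8, 64.4 and 97.7 CPM. Mrpl42 was lower at the last stage, with 413 CPM at E16.5 against 620 CPM at E14.5.

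In the small subunit, 3 of 16 proteins with a bacterial counterpart, or 18.8%, were lower by 2-fold or more at E16.5 than at E12.5, beside 22.7% of all genes. In the other direction 1 was higher, or 6.25%, beside 37.0% of all genes. Mrps12, a protein of the decoding centre, had 246 CPM at E12.5, 182 at E14.5 and 78.0 at E16.5, with a log2 ratio of -1.22 (-1.26 to -1.18) for E16.5 over E14.5. Mrps28 had 217, 134 and 94.6 CPM. Mrps9, whose bacterial counterpart reaches the tRNA in the peptidyl site, had 80.2, 99.4 and 172 CPM, and its log2 ratio of E16.5 over E12.5 was 1.10 (1.06 to 1.14) in CPM and 0.72 under median-of-ratios scaling. Another shape was a peak in the middle. Mrps16 had 206, 348 and 205 CPM, Mrps21 had 191, 341 and 211 CPM, and Mrps11, a protein of the platform, had 82.2, 156 and 115 CPM. E14.5 was the highest stage for 20 of the 76 members, or 26.3%, close to the 24.1% of all genes.

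None of the 10 mitochondria-specific proteins of the small subunit was 2-fold higher or lower in CPM at E16.5 than at E12.5, beside 37.0% and 22.7% of all genes. Under median-of-ratios scaling Mrps18b and Mrps34 passed 2-fold downward. At E14.5 relative to E12.5, 2 of the 10 were lower in CPM by 2-fold or more, or 20.0%, beside 16.3% of all genes. Mrps27, which has pentatricopeptide repeats like other RNA-binding proteins of organelles, had 30.3 CPM at E12.5, 12.9 at E14.5 and 26.1 at E16.5. It was the one member past 2-fold in opposite directions, with a log2 ratio of -1.23 (-1.32 to -1.14) for E14.5 over E12.5 and 1.01 (0.91 to 1.12) for E16.5 over E14.5; the second became 0.96 under median-of-ratios scaling. Mrps33 was the highest of this class, with 299, 247 and 208 CPM.

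The 3 paralogues Mrps18a, Mrps18b and Mrps18c took 3 different courses. They derive from 1 bacterial protein, and in mammals Mrps18c takes its place in the small subunit, Mrps18b sits elsewhere in the small subunit and Mrps18a in the large one. Despite this shared origin, Mrps18a and Mrps18b were counted here as mitochondria-specific, and only Mrps18c as having a bacterial counterpart. Mrps18c had 168 CPM at E12.5, 192 at E14.5 and 245 at E16.5. Mrps18b had 131, 49.5 and 68.3 CPM, a log2 ratio of -1.40 (-1.45 to -1.36) for E14.5 over E12.5. Mrps18a had 177, 185 and 158 CPM. At E12.5 their levels were within a narrow range, and at E16.5 Mrps18c and Mrps18a stood well above Mrps18b.

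Mrps36, despite its symbol, is in mammals a subunit of the alpha-ketoglutarate dehydrogenase complex and not of the mitoribosome. It had 127 CPM at E12.5, 182 at E14.5 and 66.0 at E16.5. Its log2 ratio of E16.5 over E14.5 was -1.46 (-1.51 to -1.41), one of the 5 at least 2-fold lower at that step. Leaving it out gave sums of 12117, 11967 and 10625 CPM for the mitoribosome subunits.

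Variants of MRPS22, MRPS7 and MRPL50 have been reported in people with ovarian insufficiency or hypogonadism. Mrps22 had 59.8 CPM at E12.5, 90.9 at E14.5 and 75.9 at E16.5. Mrps7 had 128, 147 and 204 CPM. Mrpl50 had 64.9, 60.4 and 45.8 CPM. None of these genes passed 2-fold in any comparison of stages.

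The same genes were followed across clusters within each stage. Clusters are numbered as they were formed, and 7 large ones were put in order by stage and, within a stage, by falling level of Pou5f1, the gene behind the sorted reporter, which had 684 CPM in E12.5 cluster 0, then 357, 213, 99.6 and 36.0 CPM in E14.5 clusters 1, 2, 6 and 7, and 10.9 and 7.69 CPM in E16.5 clusters 8 and 10. The order, and the pairs of clusters compared, were chosen after values of these data were seen. The summed level of the 76 genes was nearly even within E14.5, with 11999, 11939, 12334 and 12341 CPM in clusters 1, 2, 6 and 7. Within E16.5 it was 10899 CPM in cluster 8 and 10476 CPM in cluster 10. Within E12.5 it was 12730 CPM in cluster 3 and 12163 CPM in cluster 0. Y-linked genes were among the leading genes of cluster 3, and whether it holds male cells was not tested. In cluster 3 relative to cluster 0, 53 of the 76 members were higher and 23 lower. The members' median log2 ratio in that pair was 0.121, beside -0.035 over all genes compared.

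The even sum at E14.5 covered opposite differences of single genes. In cluster 7 relative to cluster 1, 6 of the 76 genes were past 2-fold upward and 8 downward, against 20.6% and 25.9% of the genes tested there. Mrps30 had 13.4 CPM in cluster 7 against 47.5 CPM in cluster 1, a log2 ratio of -1.83 (-2.02 to -1.64). Mrpl34 had 28.0 CPM in cluster 7 against 84.4 CPM in cluster 1. In the other direction, Mrpl20 had 612 CPM in cluster 7 against 252 CPM in cluster 1, a log2 ratio of 1.28 (1.23 to 1.33). Mrps25, a mitochondria-specific small-subunit protein, had 163 CPM in cluster 7 against 66.7 CPM in cluster 1. The other genes lower in cluster 7 were Mrps2, Mrpl15, Mrpl36, Mrpl23, Mrpl32 and Mrpl12, and the others higher were Mrpl17, Mrpl50, Mrpl46 and Mrps11.

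Within E16.5 the differences were smaller. In cluster 10 relative to cluster 8, 1 gene was past 2-fold upward and 0 downward, against 20.4% and 5.24% of the genes tested. The 1 gene was Mrps30, with 42.7 CPM in cluster 10 against 20.0 CPM in cluster 8, a log2 ratio of 1.10 (0.96 to 1.24). Mrpl17 showed the reverse, with 191 CPM in cluster 10 against 341 CPM in cluster 8. In cluster 3 relative to cluster 0 of E12.5, 0 genes were 2-fold higher and 0 lower, against 1.77% and 6.25% of the genes tested. The largest difference in that pair was Mrpl46, with 92.8 CPM in cluster 3 against 62.1 CPM in cluster 0.

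Most members, like most of all genes compared, differed in opposite directions in the contrasts within E14.5 and within E16.5. The contrasts of cluster 7 over 1 and of cluster 10 over 8 share no library, and 59 of the 76 genes, or 77.6%, differed in opposite directions in the pair, beside 69.7% of all genes. Of these, 35 were lower in cluster 7 and then higher in cluster 10, and 24 were the reverse. Mrps30 had its minimum inside the order, with 86.2, 47.5, 34.2, 25.3 and 13.4 CPM up to E14.5 cluster 7, and then had 20.0 and 42.7 CPM in the E16.5 clusters. Mrpl15 had 404, 257, 181, 151 and 113 CPM up to the same cluster and then 121 and 175 CPM. Mrpl17 ran the other way, with 302, 257, 281, 458 and 529 CPM and then 341 and 191 CPM. The lowest value of Mrps30 and Mrpl15 and the highest of Mrpl17 lay in the last E14.5 cluster of the order. By stage, Mrps30 was also lowest at E14.5, while Mrpl15 was lowest at E16.5.

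Other genes kept one direction for longer. Mrpl41 had 193, 140, 142, 164 and 113 CPM in the E12.5 and E14.5 clusters and 43.1 and 26.2 CPM in the E16.5 clusters, so its difference lay mainly between the libraries of E14.5 and E16.5. Mrpl34 had 126, 84.4, 81.0, 59.8, 28.0, 15.2 and 22.2 CPM along the whole order, an 8.30-fold range and the widest of the 76 genes. Mrps9 had 78.3 CPM in the first cluster and 195 CPM in the last. Counted over all 76 genes, the lowest value lay in E12.5 cluster 0 for 15 genes, or 19.7%, beside 36.2% of all genes, and in E14.5 cluster 7 for 12, or 15.8%, beside 17.2%. It lay in E16.5 cluster 8 for 19 of the 76 genes, beside 18.5% of all genes, and in E16.5 cluster 10 for 17, or 22.4%, beside 11.1%. The highest value lay in E12.5 cluster 0 for 22 genes, or 28.9%, beside 23.2% of all genes, and in E16.5 cluster 10 for 13 genes, or 17.1%, beside 29.6%.

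**Figure D3:**
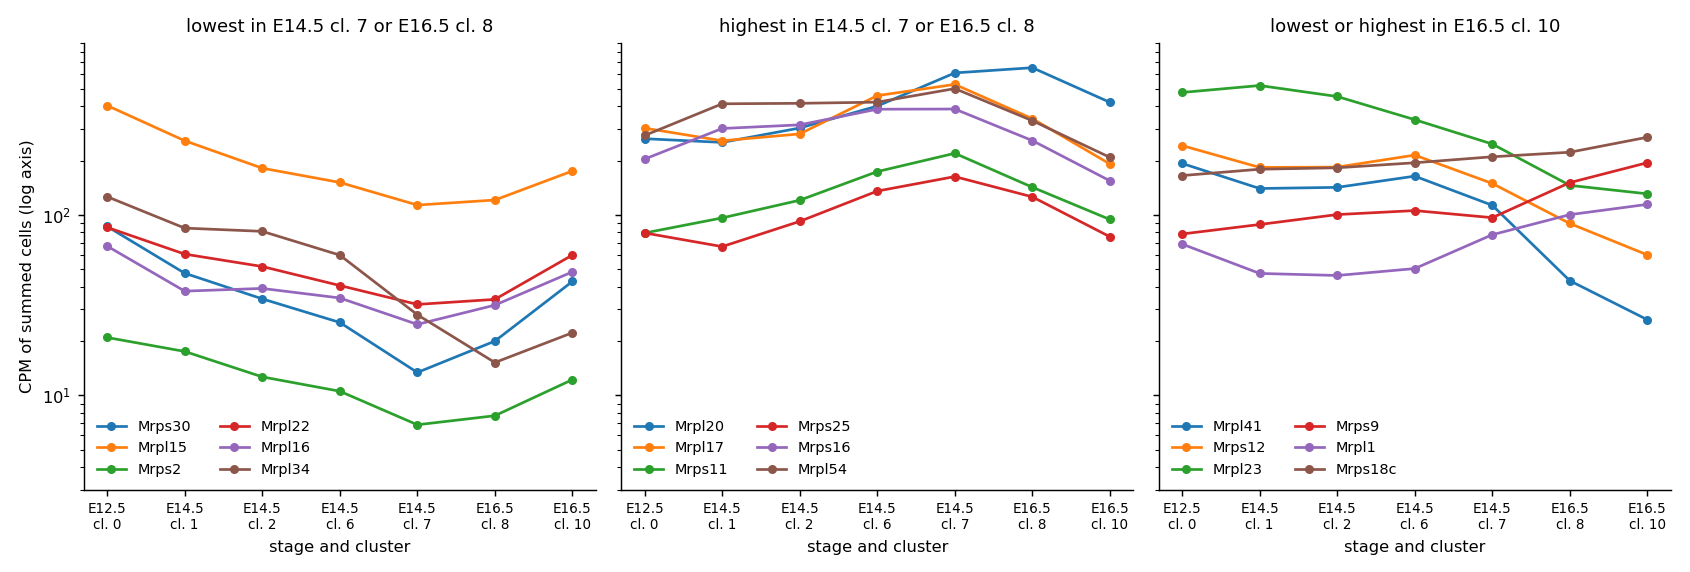
CPM (log axis) of 18 mitochondrial ribosomal protein genes in 7 germ-cell-like clusters ordered by stage and, within a stage, by falling Pou5f1. The genes were chosen after their values were seen and grouped by where their lowest or highest value lies; Mrps30 reaches 13.4 CPM in E14.5 cluster 7 and Mrpl20 reaches 654 CPM in E16.5 cluster 8.

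Single cells were compared after each had been thinned at random to 5000 UMIs, which left out 0 cells at E12.5, 11 at E14.5 and 25 at E16.5. A thinned cell held 61.2 ± 8.77 UMIs of the 76 genes at E12.5, 60.9 ± 8.87 at E14.5 and 53.4 ± 8.45 at E16.5 (mean ± SD over cells, which are not replicates). The middle 90% of cells spanned 48 to 77, 47 to 76 and 40 to 68 UMIs at the 3 stages. The variance was 1.27, 1.31 and 1.35 times that of binomial sampling, so most of the spread between cells was of the size of sampling noise. Unthinned cells held a median of 325, 134 and 135 UMIs of these genes, or 1.22%, 1.21% and 1.06% of their UMIs. The stages thus differed as a shift of the whole distribution, and no separate set of cells without these RNAs was seen.

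**Figure D4:**
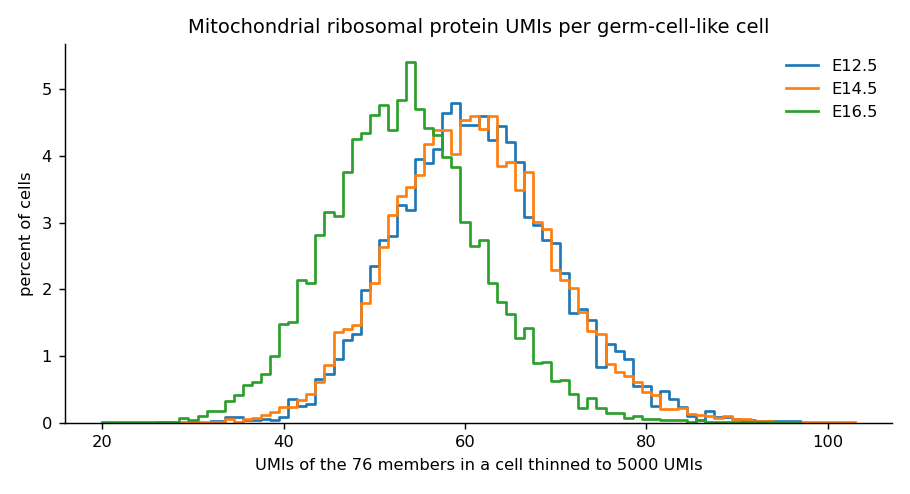
Percent of germ-cell-like cells (vertical axis) by the number of UMIs of the 76 mitochondrial ribosomal protein genes (horizontal axis) after each cell was thinned to 5000 UMIs, for E12.5, E14.5 and E16.5. The E12.5 and E14.5 curves lie on each other around a median of 61 UMIs and the E16.5 curve lies lower, around 53.

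The messenger RNAs that the mitoribosome translates, which are encoded in the mitochondrial genome, followed another course than its nuclear-encoded proteins. The 13 of them summed to 28561 CPM at E12.5, 23319 CPM at E14.5 and 30940 CPM at E16.5, and all 13 were higher at E16.5 than at E14.5, with a median log2 ratio of 0.50. Median-of-ratios scaling lowers E16.5 relative to E12.5, so which of these stages was higher depends on the scaling. The deposited cells held at most 5%, 4.99% and 5% mitochondrial UMIs in stage order, so any cells above that are not in these sums. The sums of the 13 messenger RNAs and of the 76 genes also parted within stages. Cluster 4 of E12.5, with 67 cells, held 2124 CPM of mitochondrially encoded messenger RNA and 12064 CPM of the 76 genes. Cluster 9 held 5902 CPM and 12648 CPM in its 200 E14.5 cells, against 21720 to 27241 CPM and 11939 to 12341 CPM in the other E14.5 clusters. In these cells mitochondrial RNA was low while RNA for the mitoribosome was not. Their median UMI counts were 10405 in cluster 4 and 7028 in the E14.5 cells of cluster 9, against 26600.5 in E12.5 cluster 0 and 9287 to 14174 in the other E14.5 clusters, and the part of depth or RNA quality in this was not tested. Leaving clusters 4 and 9 out, a choice made after seeing the data, changed no count of members past 2-fold by more than 1.5 times.

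**Figure D5:**
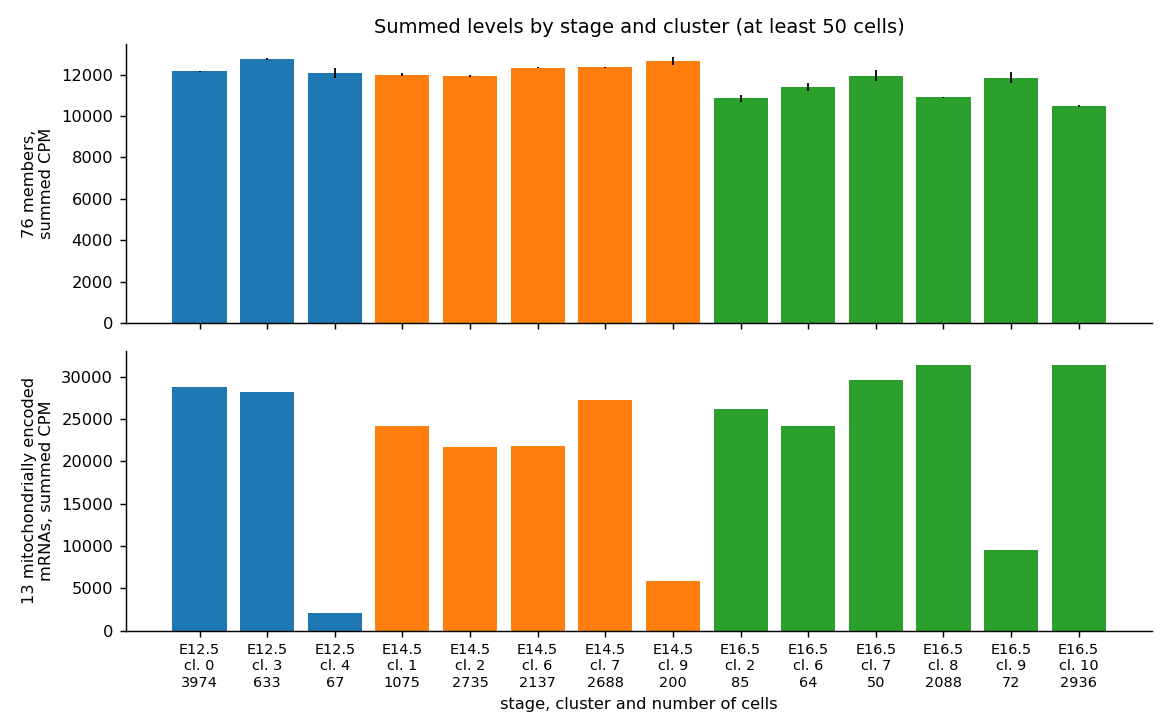
Summed CPM of the 76 mitochondrial ribosomal protein genes (top) and of the 13 mitochondrially encoded messenger RNAs (bottom) in each stage and cluster of at least 50 germ-cell-like cells, with the number of cells under each bar and 95% counting intervals. The top bars stay between 10476 and 12730 CPM while the bottom bars drop to 2124 CPM in E12.5 cluster 4 and 5902 CPM in E14.5 cluster 9.

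Other genes of ribosomes and mitochondria shared parts of the members' course and differed in others. Within 2-fold lay 81 of the 83 cytosolic ribosomal protein genes for E14.5 over E12.5 and 79 for E16.5 over E14.5. Of the 91 nuclear genes of the respiratory chain, 77 lay within 2-fold in each of these comparisons. The 83 cytosolic ribosomal protein genes had median log2 ratios of 0.12 for E14.5 over E12.5 and -0.02 for E16.5 over E14.5, and the 91 nuclear genes of the respiratory chain had 0.25 and -0.21, beside 0.30 and 0.06 over all genes. Assembly factors of the mitoribosome differed in the second step: 19 of 27 were higher at E16.5 than at E14.5, as were 7464 of all 14132 genes, with a median log2 ratio of 0.58, and 5 of the 27 were past 2-fold upward, beside the 16.3% of all genes given above. Nsun4, which methylates the small ribosomal RNA of mitochondria, had 2.62 CPM at E12.5, 6.24 at E14.5 and 26.1 at E16.5. Malsu1, a late assembly factor of the large subunit, had 88.6, 138 and 183 CPM. Rpusd3, a pseudouridine synthase, went the other way with 21.3, 7.64 and 4.18 CPM. Of 16 mitochondrial translation factors, 12 were higher in the same comparison, with a median log2 ratio of 0.45. The other 4 were lower and were the 4 of highest level at E14.5, among them Oxa1l with 65.8, 82.9 and 46.4 CPM. The 16 genes together summed to 540, 528 and 572 CPM along the stages. Mtif3, an initiation factor, had 7.65, 22.5 and 33.6 CPM.

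A further 6 proteins of the mitoribosome carry other symbols and had a median log2 ratio of 0.01 for E14.5 over E12.5, below the 0.30 of all genes, and -0.12 for E16.5 over E14.5. Gadd45gip1, a large-subunit protein near the tunnel exit, had 402 CPM at E12.5, 118 at E14.5 and 47.3 at E16.5, a wider range than that of any of the 76. Dap3, a GTP-binding small-subunit protein, had 103, 138 and 134 CPM. Among regulators of mitochondrial gene expression, 10 of the 12 measured were lower at E14.5 than at E12.5, as were 5714 of all 14132 genes. Mycn, a transcription factor that promotes ribosome production, had 116, 32.6 and 5.57 CPM. Yy1 had 20.5, 21.7 and 34.5 CPM. Import genes were lower at E14.5 than at E12.5 in 21 of 27 cases against the same background, among them Tomm40, the channel of the outer membrane, with 225, 36.0 and 37.0 CPM. The other 6 were higher, among them Timm10b with 90.0, 315 and 168 CPM. Hspe1, the highest of the list, had 1602, 1402 and 509 CPM.

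The regions around the transcription starts were examined for short sequences known to bind regulators of mitochondrial genes. RefSeq windows of 250 bases before to 50 bases after the start (GRCm38.p6) were found for 67 of the 76 genes. The ETS-type motif CCGGAAG, read on both strands, was present in 24 of the 67, or 35.8%, beside 19.5% of the 10543 genes of the table with a window. The YY1-type motif AAGATGG was present in 13, or 19.4%, beside 8.21%, and the NRF1-type motif (GCGC, any base, then TGCGC) in 13, or 19.4%, beside 11.3%. At least 1 of the 3 was found in 41, or 61.2%, beside 33.8%. The motifs CACGTG and TATAAA were each found in 5 of the 67, or 7.46%, beside 11.6% and 8.47%. These are matches of letters and not bound sites.

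The Mrps18 paralogues are shown because they diverged in level. Each line gives 170 bases before to 30 bases after the start, 5′ to 3′ on the strand of the gene, with ETS and YY1 motifs in capitals. Mrps18a lies at chr17:46110834-46111033 (plus strand), Mrps18b at chr17:35916411-35916610 (minus strand) and Mrps18c at chr5:100798589-100798788 (plus strand).
Mrps18a: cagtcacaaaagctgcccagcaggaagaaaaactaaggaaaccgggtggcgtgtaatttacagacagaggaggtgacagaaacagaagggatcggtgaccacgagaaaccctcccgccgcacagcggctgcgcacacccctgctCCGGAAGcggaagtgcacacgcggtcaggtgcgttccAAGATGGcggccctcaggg
Mrps18b: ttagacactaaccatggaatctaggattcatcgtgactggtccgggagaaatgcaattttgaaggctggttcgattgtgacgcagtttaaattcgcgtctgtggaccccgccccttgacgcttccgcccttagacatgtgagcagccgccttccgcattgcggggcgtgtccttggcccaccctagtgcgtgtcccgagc
Mrps18c: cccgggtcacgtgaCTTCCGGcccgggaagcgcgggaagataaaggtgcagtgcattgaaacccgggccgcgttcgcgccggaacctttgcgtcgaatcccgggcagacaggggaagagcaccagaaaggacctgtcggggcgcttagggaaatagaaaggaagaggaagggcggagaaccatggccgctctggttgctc
Mrps18a held both an ETS and a YY1 match, the second just downstream of its start, and Mrps18c an ETS match near the upstream end of the stretch. The 1 ETS match of Mrps18b lay in the wider window, outside the stretch shown.

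Members with wide differences in level are shown for the same reason: Mrps27 at chr13:99344616-99344815 (plus strand), Mrps9 at chr1:42851063-42851262 (plus strand), Mrpl34 at chr8:71464756-71464955 (plus strand) and Mrps30 at chr13:118387223-118387422 (minus strand). Capitals mark ETS, YY1 and NRF1 motifs.
Mrps27: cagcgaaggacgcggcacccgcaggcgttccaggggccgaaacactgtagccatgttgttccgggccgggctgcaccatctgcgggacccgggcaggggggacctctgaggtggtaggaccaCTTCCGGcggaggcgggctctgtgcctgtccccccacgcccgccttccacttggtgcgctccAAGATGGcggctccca
Mrps9: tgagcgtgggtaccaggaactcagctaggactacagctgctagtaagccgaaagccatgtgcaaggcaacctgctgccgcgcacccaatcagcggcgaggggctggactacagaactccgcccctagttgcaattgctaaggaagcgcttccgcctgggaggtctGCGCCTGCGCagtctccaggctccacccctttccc
Mrpl34: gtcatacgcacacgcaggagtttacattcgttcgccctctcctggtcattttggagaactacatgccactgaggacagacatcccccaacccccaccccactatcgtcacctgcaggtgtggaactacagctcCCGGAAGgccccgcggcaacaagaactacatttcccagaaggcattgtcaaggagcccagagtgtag
Mrps30: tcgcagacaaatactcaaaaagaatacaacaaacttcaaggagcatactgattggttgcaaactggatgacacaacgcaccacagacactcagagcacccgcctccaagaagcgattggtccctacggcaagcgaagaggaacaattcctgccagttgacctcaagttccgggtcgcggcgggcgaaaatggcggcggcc
Mrpl34, with the widest range, held an ETS match and Mrps30, lowest in E14.5 cluster 7, held none of the 3 motifs. Genes with an ETS match thus included ones that were lower (Mrpl34) and higher (Mrps18c) at E16.5 than at E12.5.

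A start of another protein-coding gene on the opposite strand lay within 1000 bases upstream for 18 of the 76 genes, or 23.7%, beside 9.63% of 12878 protein-coding genes of the table. Partners had similar ratios in some pairs and different ones in others. Mrps12 and its neighbour Sars2, the mitochondrial seryl-tRNA synthetase, start 172 bases apart, and Sars2 had 21.3, 22.1 and 8.76 CPM along the stages, with log2 ratios of E16.5 over E14.5 of -1.34 for Sars2 and -1.22 for Mrps12. Mrpl10 had 34.4, 37.6 and 29.4 CPM while its neighbour Lrrc46 had 0.22, 4.23 and 23.4 CPM. Mrps27 had its minimum at E14.5 while its neighbour Ptcd2, another pentatricopeptide repeat protein of mitochondria, had 49.9, 40.8 and 52.9 CPM.

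Exons of 31 of the 76 genes overlap those of another annotated gene, 7 on the same strand and 26 on the opposite strand, so their counts are uncertain to that extent. Whether the authors' counting used strand is not given in the sources used here. Mrpl46 and Mrps11 overlap each other in this way, and Mrps30, Mrps27, Mrps18b, Mrpl12, Mrpl36 and Mrpl48 overlap genes on the opposite strand. Mrps18c and Mrpl33 overlap a gene on the same strand. Mrpl15, Mrpl20, Mrpl23, Mrpl34, Mrpl35, Mrpl41, Mrps9, Mrps12 and Mrps36 have no such overlap.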

How the data were processed

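Libraries were made with the Chromium version 2 kit of 10x Genomics for RNA 3′ ends, per the labels' protocols. The tools were FastQC and Cell Ranger 2.0.0, with build mm10, per the submitters' processing notes. The authors deposited natural log values, ln(1 + UMIs x 10000 / cell total), for 14133 genes in 19144 cells. Undoing the natural log gave whole UMIs for 100.0% of 68606039 non-zero values (tolerance 0.01). Scrublet marked 38 cells as doublets (0.20%), which were left out; so few means that doublets may remain. Cells were clustered with scanpy 1.11.5 without the 76 genes, and clusters were named from marker lists; 1 pregranulosa-like cluster of 213 cells was left out. UMIs were summed per stage, genes needed 10 UMIs over the 3 sums (14132 passed, all 76 members among them), and exact Poisson and conditional binomial 95% intervals were computed. The ratio step was tested on simulated data. Named members were the 5 of largest ratio per direction and comparison, the highest and lowest per stage, and genes listed for their known biology; Mrpl36, Mrpl16, Mrps28, Mrps25, Mrpl17, Mrps33 and Mrpl10 were named outside this rule after values were seen. From the pathway lists only some of the genes of highest level or largest ratio were named, and Dap3, Yy1 and Sars2 beside them. Lists of mitochondrial aminoacyl-tRNA synthetases and of mitochondrial DNA maintenance and transcription were examined but are not described. The members and lists were chosen with earlier results of these data known. The design foresaw sums of UMIs with no test. Alternatives were other library scalings, all cells, means over cells, thinned cells, other minimums, subunits only, and leaving out Y-UMI cells.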

Additional observations from a re-analysis of the deposited data

How the results depend on the processing

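Under median-of-ratios scaling the median log2 ratios of the 76 genes were -0.41 (E14.5 over E12.5), -0.17 (E16.5 over E14.5) and -0.59 (E16.5 over E12.5), with 0, 0 and 0 genes at least 2-fold higher and 11 and 18 lower in the first and last comparison. The summed CPM was 14408, 11394 and 9687 at E12.5, E14.5 and E16.5. Under TMM scaling the medians were -0.35, -0.21 and -0.57, with 0, 0 and 0 genes higher and 10 and 18 lower, sums of 14167, 11669 and 9620, and 18, 26 and 17 genes above no change against 58, 50 and 59 below. All-gene medians on the TMM scale were 0.032, -0.037 and 0.024. With all cells kept, 0 genes were 2-fold higher at E16.5 than at E14.5, and the E14.5 sum was 12101. As means over cells the sums were 12223 at E12.5 and 12185 at E14.5, and in thinned cells 12175 at E14.5. Without E12.5 cells holding a Y-linked UMI the E12.5 sum was 12163. With mitoribosome subunits only the sums were 12117, 11967 and 10625. No result changed sign, and the members' median stayed below that of all genes in each comparison under every setting run (lowest and highest difference -0.41 and -0.28, -0.18 and -0.15, and -0.60 and -0.46 in the order above). Library scaling shifts all genes of a comparison alike and could not change this difference. Dropping the minimum of UMIs left it almost fixed, so only the other settings could move it. No paired analysis was possible because each stage was 1 library, and no replicate could be left out. A difference between stages cannot be told apart from a difference between libraries.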
